A study of Homo sapiens with 8 samples.

Results

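DNA methylation and demethylation enzymes were followed in MP38 cells through 9 genes chosen by name: the methyltransferases DNMT1, DNMT3A and DNMT3B, the hemimethylated DNA readers UHRF1 and UHRF2, the dioxygenases TET1, TET2 and TET3, and the glycosylase TDG. They are 9 of the 35238 gene symbols in the count table, and all 9 were among the 15085 genes that passed the low-count filter. MP38 is a BAP1-mutant human uveal melanoma (UM) cell line, BAP1 being a deubiquitinase and tumour suppressor lost in many aggressive UM. Treatment lasted 24 h, with romidepsin or quisinostat at 40 nM, mivebresib at 1200 nM, or 0.1% DMSO alone as the control, and the drugs too were given in 0.1% DMSO. Each of the 4 groups held 2 libraries from separate wells of this 1 cell line, so every p-value measures the spread between wells only. Romidepsin and quisinostat inhibit histone deacetylases (HDACs), romidepsin mainly those of class I and quisinostat a broader set, whereas mivebresib blocks the acetyl-lysine readers of the BET family. The dose of mivebresib differed from that of the HDAC inhibitors.

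Methyl groups on the cytosines of CpG dinucleotides are lost by dilution when DNA is copied unless they are restored. DNMT1 restores them on the new strand, and UHRF1 guides it there by binding hemimethylated CpG sites and ubiquitinating histone H3. DNMT3A and DNMT3B set new methylation, the TET enzymes oxidize 5-methylcytosine, and TDG excises the oxidized bases for repair. Expression of DNMT1 and UHRF1 is known to follow the cell cycle and to be high in S phase. No DNA methylation was measured in these libraries, so all values below are transcript levels.

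The promoter sequences of UHRF1, DNMT1 and UHRF2 are shown because UHRF1 and DNMT1 fell with the HDAC inhibitors while UHRF2, the paralog of UHRF1, behaved differently. They are RefSeq sequences of build GRCh38.p14, written 5′ to 3′ on the gene's strand, from 250 bases before to 50 bases from the annotated start. Capitals mark E2F-type letters, searched on both strands as TTTCCCGC, TTTCGCGC, TTTGCCGC or TTTGGCGC. The matches did not overlap a CCAAT box, a GC box (GGGCGG) or an E box (CACGTG).
UHRF1, first start (chr19:4909251-4909550, plus strand): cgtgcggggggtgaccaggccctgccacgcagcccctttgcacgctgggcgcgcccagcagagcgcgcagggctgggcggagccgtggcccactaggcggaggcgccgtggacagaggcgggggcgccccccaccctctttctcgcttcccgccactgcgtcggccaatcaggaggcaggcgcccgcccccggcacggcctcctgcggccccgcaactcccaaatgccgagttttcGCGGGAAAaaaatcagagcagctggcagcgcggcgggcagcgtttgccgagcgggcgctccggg
UHRF1, second start (chr19:4909894-4910193, plus strand): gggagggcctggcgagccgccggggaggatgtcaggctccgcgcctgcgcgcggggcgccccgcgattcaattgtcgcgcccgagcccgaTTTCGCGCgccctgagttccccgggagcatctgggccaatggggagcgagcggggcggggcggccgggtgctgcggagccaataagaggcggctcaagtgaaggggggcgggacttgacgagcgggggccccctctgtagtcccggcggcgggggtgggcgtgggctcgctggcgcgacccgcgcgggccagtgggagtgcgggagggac
DNMT1 (chr19:10194904-10195203, minus strand): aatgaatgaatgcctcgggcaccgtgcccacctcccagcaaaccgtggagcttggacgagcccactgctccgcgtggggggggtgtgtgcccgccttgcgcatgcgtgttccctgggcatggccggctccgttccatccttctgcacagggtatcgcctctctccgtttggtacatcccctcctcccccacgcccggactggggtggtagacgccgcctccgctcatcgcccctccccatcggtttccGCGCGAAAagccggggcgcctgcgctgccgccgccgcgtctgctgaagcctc
UHRF2 (chr9:6412949-6413248, plus strand): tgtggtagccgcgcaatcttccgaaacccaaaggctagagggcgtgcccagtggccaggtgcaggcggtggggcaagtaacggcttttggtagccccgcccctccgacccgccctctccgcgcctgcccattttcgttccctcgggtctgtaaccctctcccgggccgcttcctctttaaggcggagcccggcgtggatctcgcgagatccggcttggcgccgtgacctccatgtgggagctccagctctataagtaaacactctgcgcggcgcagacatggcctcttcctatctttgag

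With the start base counted as 0, the letters began at position -14 of the first UHRF1 window, at -160 of the second and at -2 of the DNMT1 window. They were absent from the third UHRF1 window and from the windows of the other 7 genes. Among 35116 promoter windows of the same length, 1164 (3.31%) held such letters. The UHRF1 windows also held a CCAAT box, 1 in the first and 2 in the second, a motif present in 34.6% of all windows. CpG dinucleotides numbered 30 in the DNMT1 window, 36 to 46 in the UHRF1 windows and 26 in the UHRF2 window, against 3 in the only DNMT3B window. That window (chr20:32779602-32779901) lies inside the gene, past its annotated beginning at chr20:32762385, where no window was searched. Its CpG number and its lack of E2F-type letters therefore describe an internal start only. The DNMT1 and UHRF1 windows too lie inside their GENCODE spans, which begin at chr19:10231286 (DNMT1, minus strand) and chr19:4903080 (UHRF1). No window was searched at those beginnings, so the letters of DNMT1 and UHRF1 describe the RefSeq starts only. These matches describe letters in a window and were not tested as binding sites. In GENCODE release 29 (GRCh38), UHRF1 (ENSG00000276043) spans chr19:4903080-4962154 on the plus strand and DNMT1 (ENSG00000130816) spans chr19:10133345-10231286 on the minus strand. UHRF2 (ENSG00000147854) lies at chr9:6413151-6507054, TDG (ENSG00000139372) at chr12:103965804-103988874, DNMT3A (ENSG00000119772) at chr2:25227855-25342590 and DNMT3B (ENSG00000088305) at chr20:32762385-32809356. TET1 (ENSG00000138336) lies at chr10:68560656-68694482, TET2 (ENSG00000168769) at chr4:105145875-105279816 and TET3 (ENSG00000187605) at chr2:73986404-74108176. The counts cover all exons of a gene together.

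Total counts per library ranged from 28483235 to 29359024, so depth hardly varied between groups. The control wells differed from each other more than the wells of any drug did, with a chi-square per degree of freedom over genes of 58.1 against 9.52 to 9.79. The tests below used a common estimate of the spread of a gene over all groups. Standard errors and p-values against control can therefore be too small, and those between drugs too large. Melanocytic markers were detected in every group, with 7 of 8 above 3 counts in both libraries, S100B at only 6 to 14 counts. Their summed level lay between 3561 and 5451 counts per 1e6 counts after scaling by the trimmed mean of M values, TMM (CPM), most of it TYRP1. Of 7 tested, none rose, and 1, 3 and 4 fell with romidepsin, quisinostat and mivebresib, where 15.8%, 25.1% and 24.1% of all genes fell. The summed level of fibroblast markers lay between 1.28 and 10.9 CPM, that of epithelial markers between 0.951 and 6.20 CPM and that of endothelial markers between 0.602 and 5.82 CPM, with KRT5 and CDH5 at 0 in every library. Leukocyte markers summed to 61.2 to 83.3 CPM, most of it CD68, and CD3E was at 0. In bulk RNA, a smaller share of cells that express a gene and less of its RNA per cell cannot be told apart.

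Compared per length, as CPM per kilobase of exon (RPKM), DNMT1 was the most abundant of the 9 transcripts in control cells at 12.6 ± 1.83 RPKM (SD, n = 2). UHRF1 followed with 6.51 RPKM and TDG with 6.03 RPKM, and the libraries of these neighbours overlapped. UHRF2 had 4.03 RPKM and DNMT3A 1.90 RPKM, each apart from its neighbours. TET3 and TET2 overlapped at 1.05 and 0.887 RPKM. DNMT3B and TET1 were the least abundant, at 0.299 and 0.0984 RPKM. The order changed with treatment mainly because UHRF1 moved from rank 2 in control cells to rank 4 with romidepsin and with mivebresib and to rank 5 with quisinostat, where its 1.29 RPKM lay below DNMT3A at 1.54 RPKM. DNMT1 kept rank 1 and TET1 rank 9 in each of the 4 groups.

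**Figure D1:**
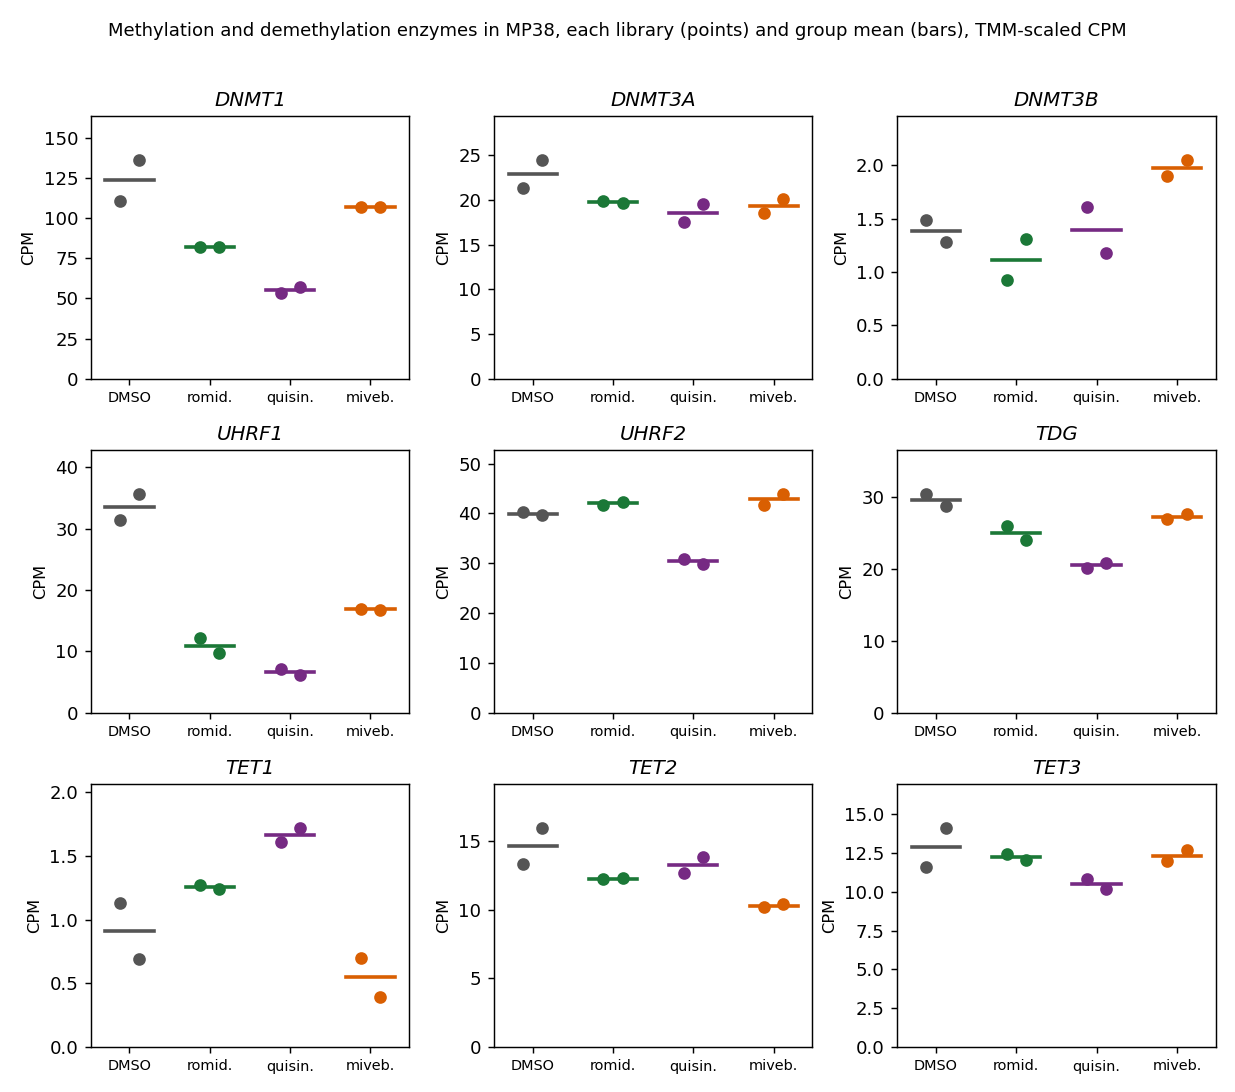
Level of each of the 9 enzymes in CPM (y axis, from 0, scaled by the trimmed mean of M values) in each library (points) with the group mean (bar), for DMSO, romidepsin, quisinostat and mivebresib (x axis, 2 libraries each). UHRF1 lay at 31.4 and 35.6 CPM in DMSO and at 16.9 CPM or lower in every drug library, whereas UHRF2 lay between 29.8 and 43.9 CPM throughout.

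Of the 9 enzymes, 2 fell and none rose with romidepsin (adjusted p below 0.05, edgeR quasi-likelihood test), where 31.0% of all genes tested were called, 15.2% higher and 15.8% lower. With quisinostat 5 fell and 1 rose against 53.2% of all genes called, 28.0% higher and 25.1% lower. With mivebresib 2 fell and none rose against 46.2%, 22.2% higher and 24.1% lower. The median log2 fold change (log2 FC) of the 9 was -0.25, -0.30 and -0.21 in that order, beside -0.01, -0.00 and 0.01 over all genes tested. The share of enzymes called was below that of all genes with romidepsin and with mivebresib and above it with quisinostat, where the called enzymes were mostly lower. The 3 comparisons share the same control libraries and are not independent of each other.

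UHRF1, the reader that recruits DNMT1, showed the largest fall of the 9 with every drug. Its level was 31.4 and 35.6 CPM in the control libraries, 12.2 and 9.67 with romidepsin, 7.09 and 6.14 with quisinostat, and 16.9 and 16.8 with mivebresib. The groups did not overlap, and the order from control through mivebresib and romidepsin to quisinostat held in every library. Romidepsin lowered UHRF1 3.06-fold (log2 FC -1.61 ± 0.13 (SE), edgeR adjusted p = 0.000124). Quisinostat lowered it 5.06-fold (log2 FC -2.34 ± 0.14, edgeR adjusted p = 4.86e-06). Mivebresib lowered it 1.99-fold (log2 FC -0.99 ± 0.13, edgeR adjusted p = 0.000347). UHRF1 was also the only one of the 9 with a change beyond the study's threshold of 1.5 log2 units against control, which it passed with romidepsin, where 4.08% of all genes did, and with quisinostat, where 12.2% did, but not with mivebresib, where 8.32% did. Both HDAC inhibitor folds are at the low end of all genes tested, at percentile 0.477 for romidepsin and 0.219 for quisinostat, and the mivebresib fold is at percentile 9.63. UHRF1 kept its call in all 13 alternative analyses of each comparison, with a log2 FC from -1.79 to -1.46 for romidepsin, -2.44 to -2.0 for quisinostat and -1.08 to -0.90 for mivebresib.

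DNMT1, the maintenance methyltransferase, fell with both HDAC inhibitors by less than UHRF1. It read 111 and 136 CPM in control cells, 81.9 and 82.1 with romidepsin, 53.2 and 57.1 with quisinostat, and 107 in both mivebresib libraries. All drug libraries were below both control libraries, those of mivebresib by the smallest margin. The log2 FC was -0.59 ± 0.10 (SE) with romidepsin (edgeR adjusted p = 0.00363) and -1.16 ± 0.10 with quisinostat (edgeR adjusted p = 4.22e-05). With mivebresib it was -0.21, with a 95% interval from -0.44 to 0.03 (edgeR adjusted p = 0.129). This last value turned on the control wells, since without control replicate 1 it was -0.35 with an edgeR adjusted p of 0.00516. S1PR2, a sphingosine receptor gene annotated on the same strand within the span of DNMT1, had 428 and 429 counts in control cells and 85 and 92 with mivebresib, against 3129 and 3727 for DNMT1 in control cells.

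UHRF2, which shares the domains of UHRF1 but cannot replace it in maintenance, kept its level with romidepsin and mivebresib within narrow limits and fell with quisinostat. It read 40.2 and 39.7 CPM in control cells, 41.7 and 42.4 with romidepsin, 30.9 and 29.8 with quisinostat, and 41.7 and 43.9 with mivebresib. Quisinostat stood alone below the other 3 groups (log2 FC -0.39 ± 0.07, edgeR adjusted p = 0.00235). The 95% interval of the difference from control was -0.09 to 0.24 for romidepsin (edgeR adjusted p = 0.474) and -0.07 to 0.27 for mivebresib (edgeR adjusted p = 0.304). Scaled by library size alone, which put the median gene 0.196 log2 units higher with quisinostat, UHRF2 read -0.19 against control (edgeR adjusted p = 0.0694). Relative to that median the fall was of like size.

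Because UHRF1 and UHRF2 were counted in the same libraries, their ratio does not depend on scaling. There were 0.781 and 0.898 UHRF1 counts per UHRF2 count in control libraries, 0.292 and 0.228 with romidepsin, 0.229 and 0.206 with quisinostat, and 0.406 and 0.382 with mivebresib. Every drug library was below both control libraries. DNMT1 counts per DNMT3A count were 5.20 and 5.57 in control libraries, 4.11 and 4.19 with romidepsin, 3.03 and 2.93 with quisinostat, and 5.77 and 5.32 with mivebresib. Mivebresib overlapped the control here, while both HDAC inhibitors lay below. With 2 libraries against 2, an exact permutation test cannot go below p = 0.333, so these ratios are given as a description.

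**Figure D2:**
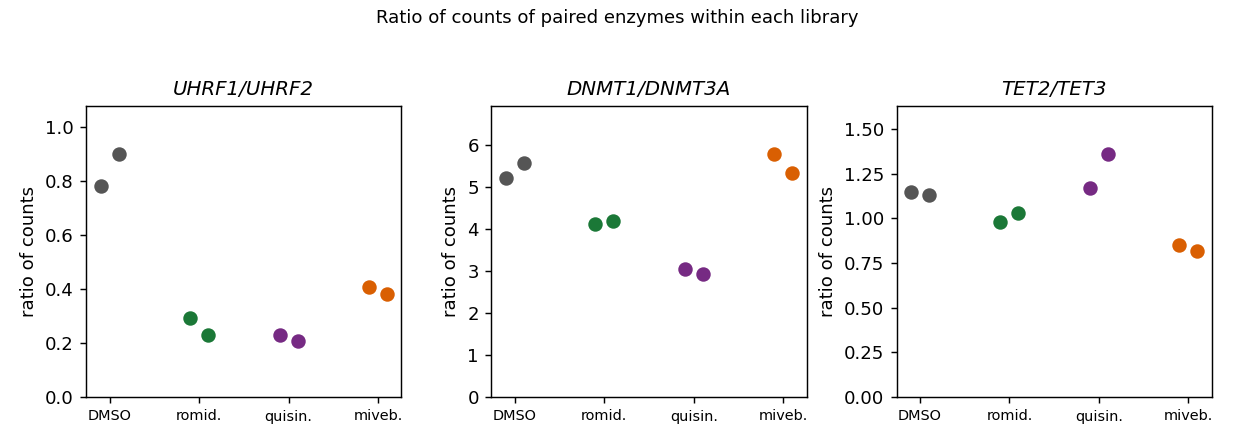
Ratio of counts (y axis, from 0) of UHRF1 to UHRF2, DNMT1 to DNMT3A and TET2 to TET3 within each library (points), by treatment (x axis). UHRF1 per UHRF2 was 0.781 and 0.898 in DMSO and at most 0.406 in any drug library.

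TDG, the glycosylase that removes 5-formylcytosine and 5-carboxylcytosine, fell with quisinostat. It read 30.4 and 28.7 CPM in control cells, 25.9 and 23.9 with romidepsin, 20.1 and 20.8 with quisinostat, and 26.9 and 27.5 with mivebresib. No drug library reached the lower control library. The fall with quisinostat was -0.53 ± 0.08 on the log2 scale (edgeR adjusted p = 0.000879). The romidepsin value of -0.25 ± 0.08 missed the threshold (edgeR adjusted p = 0.0531) and passed it without control replicate 2 (edgeR adjusted p = 0.0317). Mivebresib read -0.12 (edgeR adjusted p = 0.276).

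The de novo methyltransferases differed little from control. DNMT3A read 21.3 and 24.4 CPM in control cells, 19.9 and 19.6 with romidepsin, 17.6 and 19.5 with quisinostat, and 18.5 and 20.1 with mivebresib. Its log2 FC was -0.21, -0.30 and -0.24 in that order, with edgeR adjusted p-values of 0.15, 0.035 and 0.0832. The quisinostat call was lost in 9 of 13 alternatives, with values down to -0.10, so a fall of DNMT3A was not secure at this number of libraries. DNMT3B was near the lower limit of detection, with 27 to 57 counts in every library. It read 1.49 and 1.28 CPM in control cells, 0.927 and 1.31 with romidepsin, 1.61 and 1.18 with quisinostat, and 1.90 and 2.05 with mivebresib. Only the mivebresib libraries lay apart from the control libraries, and their log2 FC of 0.51 had a 95% interval of -0.08 to 1.11 (edgeR adjusted p = 0.14). DNMT3L, the catalytically inactive partner of the de novo enzymes, had 2 to 5 counts per library and was not tested.

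Among the dioxygenases, TET2 fell with mivebresib and TET1 rose with quisinostat. TET2 read 13.3 and 15.9 CPM in control cells, 12.2 and 12.3 with romidepsin, 12.7 and 13.8 with quisinostat, and 10.2 and 10.4 with mivebresib. The mivebresib libraries were the lowest of the 8 (log2 FC -0.51 ± 0.12, edgeR adjusted p = 0.00679), and this call held in all 13 alternatives. The HDAC inhibitor values of TET2, -0.25 for romidepsin and -0.14 for quisinostat, did not pass (edgeR adjusted p = 0.12 and 0.321), though without control replicate 1 the romidepsin value was -0.35 (edgeR adjusted p = 0.0445). TET1 had 11 to 54 counts per library. Its level was 1.13 and 0.694 CPM in control cells, 1.27 and 1.24 with romidepsin, 1.61 and 1.72 with quisinostat, and 0.695 and 0.395 with mivebresib. Both quisinostat libraries lay above the others, and the rise of 0.86 ± 0.31 on the log2 scale just passed (edgeR adjusted p = 0.045) but was lost in 6 of 12 alternatives. TET1 with romidepsin read 0.45 (edgeR adjusted p = 0.318) and with mivebresib -0.75 (edgeR adjusted p = 0.133). TET3 read 11.6 and 14.1 CPM in control cells and 10.2 to 12.7 CPM in all drug libraries, and no comparison with control passed. Without control replicate 1 the quisinostat value of TET3 moved from -0.29 (edgeR adjusted p = 0.0641) to -0.43 (edgeR adjusted p = 0.0104). TET2 counts per TET3 count were 1.15 and 1.13 in control libraries and 0.850 and 0.819 with mivebresib. They were 0.981 and 1.03 with romidepsin and 1.17 and 1.36 with quisinostat. The mivebresib and romidepsin libraries lay below both control libraries, and the quisinostat libraries lay above both.

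**Figure D3:**
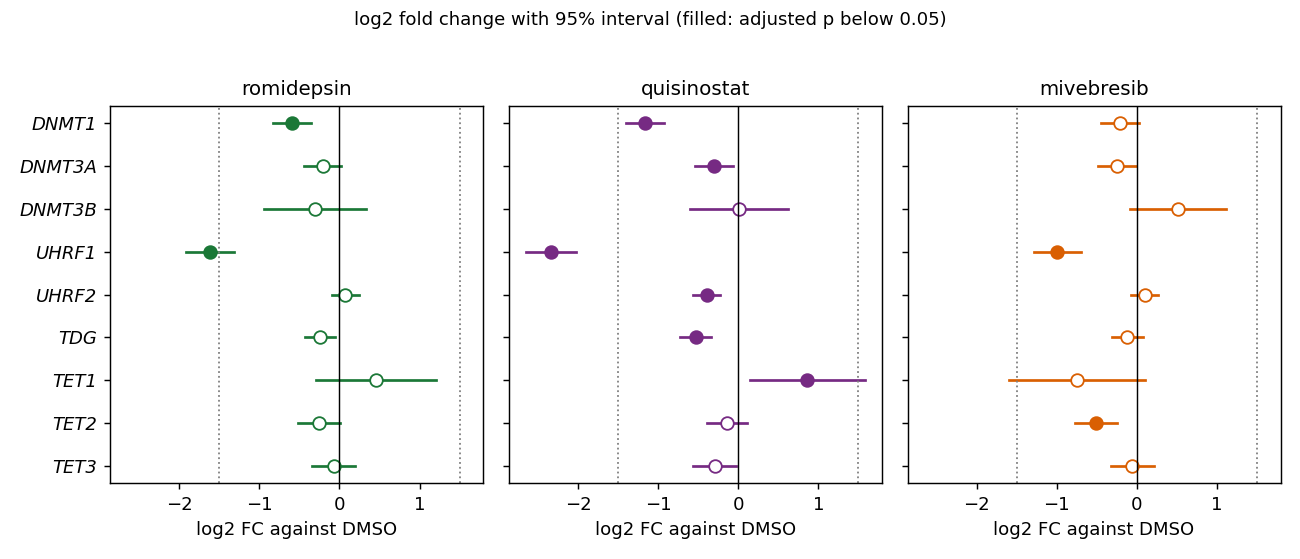
Log2 FC against DMSO (x axis) of the 9 enzymes (y axis) for each drug, with 95% intervals from the edgeR fit (filled points: adjusted p below 0.05; dotted lines: 1.5 log2 units). UHRF1 was lower with all 3 drugs, at -1.61, -2.34 and -0.99, DNMT1 passed with both HDAC inhibitors, and the intervals of DNMT3B and TET1 were the widest.

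The HDAC inhibitors, given at the same concentration, differed in size of effect on some of the 9 enzymes. The paper found romidepsin more potent than quisinostat against MP38 viability, so equal concentration is not equal strength. Quisinostat left 4 of the 9 lower than romidepsin and none higher, where 35.6% of all genes were called, 21.0% higher and 14.6% lower. No enzyme differed by more than 1.5 log2 units, which 5.59% of all genes did. UHRF1 was lower by 0.72 ± 0.14 on the log2 scale (edgeR adjusted p = 0.00503), DNMT1 by 0.57 ± 0.10 (edgeR adjusted p = 0.00377) and UHRF2 by 0.47 ± 0.07 (edgeR adjusted p = 0.00203). TDG was lower by 0.28 (edgeR adjusted p = 0.0295), a call lost in 8 of 13 alternatives. Mivebresib, at its own higher dose, left 3 members higher than romidepsin and 1 lower, against 48.9% of all genes called, 23.7% higher and 25.2% lower. None of them passed 1.5 log2 units, which 9.22% of all genes did. These were UHRF1 (log2 FC 0.62, edgeR adjusted p = 0.00479), DNMT1 (0.38, adjusted p = 0.0148), DNMT3B (0.82, adjusted p = 0.032) and TET1 (-1.20, adjusted p = 0.0216). With 1 library left out, from 1 to 2 of these 4 calls remained, and that of DNMT1 was lost each time although its value stayed at 0.38. Against quisinostat, mivebresib left 4 members higher and 2 lower, where 57.7% of all genes were called, 26.2% higher and 31.5% lower. UHRF1 was higher by 1.35 ± 0.14 (edgeR adjusted p = 6.8e-05), DNMT1 by 0.95 ± 0.10 (9.82e-05), UHRF2 by 0.49 ± 0.07 (0.000584) and TDG by 0.41 ± 0.08 (0.00295). TET1 was lower by 1.61 ± 0.34 on the log2 scale (edgeR adjusted p = 0.00363), the only member beyond 1.5 log2 units between drugs, where 14.3% of all genes were, and TET2 was lower by 0.37 (adjusted p = 0.0226). The TET2 call was lost in 4 of 13 alternatives, with DESeq2 and without quisinostat replicate 2, mivebresib replicate 1 or mivebresib replicate 2 (edgeR adjusted p = 0.147, 0.0955 and 0.0774), and that of TDG in 2 of 13.

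S phase genes, with which UHRF1 and DNMT1 are known to be expressed, fell in large number. All 18 fell with romidepsin and with quisinostat and 13 with mivebresib, and none rose, where 15.8%, 25.1% and 24.1% of all genes fell. Their median log2 FC was -1.09, -1.52 and -0.60. RRM2, a ribonucleotide reductase subunit, went from 173 ± 6.07 CPM in control cells to 28.7 ± 1.05 with quisinostat (log2 FC -2.59, edgeR adjusted p = 6.49e-07). MCM4, a replicative helicase subunit, fell with romidepsin (-1.31) and quisinostat (-2.03) but read -0.16 with mivebresib (edgeR adjusted p = 0.149). Mivebresib left 17 of the 18 higher than quisinostat, as it did UHRF1 and DNMT1. UHRF1 lay lower than the median S phase gene with each drug and DNMT1 higher. Of the 14 S phase genes with a promoter window, 10 held E2F-type letters, beside 3.99% of all genes. The share of cells in S phase was not measured, and its part in the fall of UHRF1 and DNMT1 was not tested.

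Partners of the methyltransferases were called in both directions, where 15.8%, 25.1% and 24.1% of all genes fell with romidepsin, quisinostat and mivebresib and 15.2%, 28.0% and 22.2% rose. Of 14 tested, 1 rose and 5 fell with romidepsin, 2 rose and 11 fell with quisinostat, and 3 rose and 4 fell with mivebresib, with median log2 FC of -0.26, -0.45 and -0.10. CDCA7, which with the remodeller HELLS opens nucleosomes for maintenance, fell with all 3 drugs, from 42.2 ± 1.91 CPM in control cells to 20.7 ± 1.01 (romidepsin), 17.0 ± 1.61 (quisinostat) and 25.3 ± 1.13 (mivebresib) (log2 FC -1.02, -1.31 and -0.74, edgeR adjusted p = 0.000212, 1.47e-05 and 0.000373). HELLS fell with quisinostat (-0.83, edgeR adjusted p = 0.000166) and read -0.27 with romidepsin (adjusted p = 0.0595) and -0.18 with mivebresib (adjusted p = 0.157). LIG1, the DNA ligase whose methylated form binds UHRF1, fell with all 3 drugs (-0.59, -0.84 and -0.28, edgeR adjusted p = 0.00145, 7.57e-05 and 0.024). PCNA, the replication clamp that DNMT1 binds and also 1 of the S phase genes, fell with romidepsin (-0.47) and quisinostat (-0.87) and read -0.11 with mivebresib (edgeR adjusted p = 0.272). ZNF445, a zinc finger protein that guards imprinted methylation, rose with quisinostat (0.44) and mivebresib (0.99, edgeR adjusted p = 0.000102). TRIM28, the corepressor such zinc fingers recruit, fell with both HDAC inhibitors (-0.39 and -0.46) and rose with mivebresib (0.65, edgeR adjusted p = 0.000461).

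Readers of methylated CpG were called near the share of all genes with romidepsin and mivebresib (31.0% and 46.2%, either direction), and with quisinostat 53.2% of all genes were called. By direction, 15.2%, 28.0% and 22.2% of all genes rose and 15.8%, 25.1% and 24.1% fell with romidepsin, quisinostat and mivebresib. Of 8 tested, 1 rose and 1 fell with romidepsin, none rose and 5 fell with quisinostat, and none rose and 4 fell with mivebresib, with median log2 FC of -0.19, -0.30 and -0.21. MBD3, a subunit of the NuRD complex that binds methylated DNA weakly, fell from 113 ± 6.13 CPM to 64.4 ± 1.51 with romidepsin and 53.4 ± 0.289 with quisinostat (-0.81 and -1.08, edgeR adjusted p = 0.00036 and 2.18e-05) and read -0.08 with mivebresib (adjusted p = 0.487). ZBTB38 fell with mivebresib (-1.02, edgeR adjusted p = 0.000304), and ZBTB4 fell with quisinostat (-0.34) and mivebresib (-0.58).

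Genes of base excision repair, listed together with GADD45A and GADD45B, were called in both directions. Over all genes, 15.2%, 28.0% and 22.2% rose and 15.8%, 25.1% and 24.1% fell with romidepsin, quisinostat and mivebresib. Of 13 tested in the list, 2 rose and 5 fell with romidepsin, 1 rose and 5 fell with quisinostat, and 4 rose and 5 fell with mivebresib. The median log2 FC of the list was -0.08, -0.12 and -0.19. UNG, also 1 of the S phase genes, was among the falls with each drug. LIG3, which seals the repaired strand, fell with all 3 drugs (-0.53, -0.61 and -0.75, edgeR adjusted p = 0.00203, 0.000331 and 0.000143). NEIL3, a glycosylase of proliferating cells, fell with quisinostat (-1.77, edgeR adjusted p = 1.55e-05) and by less with romidepsin (-0.61) and mivebresib (-0.37). GADD45A, a stress-induced gene that has been linked to demethylation, rose with mivebresib from 119 ± 12.8 to 387 ± 9.44 CPM (1.70, edgeR adjusted p = 7.89e-06) and with romidepsin (0.35, adjusted p = 0.0291). MBD4, a glycosylase that is also 1 of the readers above, rose with romidepsin (0.30, edgeR adjusted p = 0.0198) and read 0.11 with quisinostat (adjusted p = 0.239) and -0.02 with mivebresib (adjusted p = 0.89).

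Cofactors and partners of the TET enzymes gave 2 rises and 3 falls of 10 with romidepsin, 3 and 3 with quisinostat, and 4 and none with mivebresib. Over all genes, 15.2%, 28.0% and 22.2% rose and 15.8%, 25.1% and 24.1% fell in that order. The rises include WT1, at 0 counts in the control libraries, with romidepsin and quisinostat, and CXXC4 with quisinostat. Both genes passed the low-count filter through quisinostat libraries, so their rises are partly set by it. The median log2 FC of the list was -0.12, -0.06 and 0.43, the last being 0.23 when the genes at or under 3 counts in control cells were set to their bound or left out. OGT, the O-GlcNAc transferase that TET proteins bind, rose with mivebresib from 107 ± 17.5 to 205 ± 27.4 CPM (0.94, edgeR adjusted p = 0.000567). IDH2, which makes the cosubstrate 2-oxoglutarate in mitochondria, fell with romidepsin (-0.64) and quisinostat (-0.33). D2HGDH, which clears D-2-hydroxyglutarate, an inhibitor of TET enzymes, fell with both HDAC inhibitors (-0.53 and -0.56) and rose with mivebresib (0.78, edgeR adjusted p = 0.000419). CXXC4, a CXXC domain protein that binds TET2, had 2 counts in each control library and 19 and 35 with quisinostat.

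Genes of the S-adenosylmethionine (SAM) cycle, which supplies the methyl groups, gave 3 rises and no fall of 9 with romidepsin, 2 and 3 with quisinostat, and 4 and 1 with mivebresib. Over all genes, 15.2%, 28.0% and 22.2% rose and 15.8%, 25.1% and 24.1% fell in that order. The median log2 FC of the list was 0.09, -0.02 and 0.24. MAT2A, the SAM synthetase of most tissues, read 177 ± 10.8 CPM in control cells and fell with quisinostat (-0.32, edgeR adjusted p = 0.0103), reading 0.00 with romidepsin (adjusted p = 0.981) and 0.19 with mivebresib (adjusted p = 0.0937). MAT1A, its liver counterpart, was low at 2.79 ± 0.340 CPM. It rose with the HDAC inhibitors (1.01 for romidepsin and 1.35 for quisinostat) and fell with the BET inhibitor (-1.43, edgeR adjusted p = 0.000602). AHCY, which clears S-adenosylhomocysteine, fell with quisinostat (-0.35, edgeR adjusted p = 0.0121) and rose with mivebresib (0.39, adjusted p = 0.00842).

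**Figure D4:**
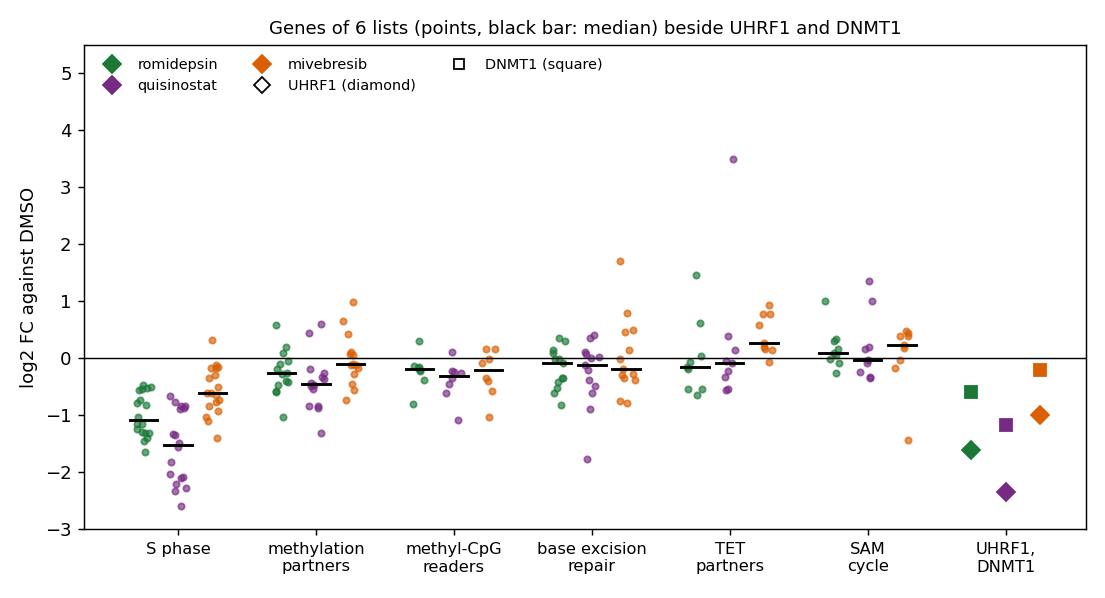
Log2 FC against DMSO (y axis) of the genes of 6 lists for romidepsin, quisinostat and mivebresib (points, with the median as a black bar). UHRF1 (diamonds) and DNMT1 (squares) are drawn beside them. WT1, at 0 counts in the control libraries, is not drawn and is left out of the median bars of the TET partners. Those bars therefore differ from the medians in the text, which include WT1. S phase genes have the lowest medians, -1.09, -1.52 and -0.60, and UHRF1 lies below each of them.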

How the data were processed

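RNA-seq of MP38 cells was taken from the tables of the study, which was run through BioJupies. The authors deposited counts per gene symbol without normalization, and a log10 table that equals log10(CPM + 1) of those counts. A quantile-normalized table was not used. Per the labels the build is hg38 and libraries keep strand, while the aligner and whether counting used strand are not given in the sources used here, so antisense and overlapping genes are uncertain. Counts were tested with edgeR 4.0.16 (R 4.3.3) by quasi-likelihood with TMM scaling, filterByExpr and Benjamini-Hochberg adjustment over 15085 genes, all 8 libraries in 1 fit, 6 comparisons. A gene was called at an adjusted p below 0.05. CPM are TMM-scaled, and RPKM use the union of GENCODE exons. DESeq2 1.42.0, limma 3.58.1 (voom, and on the log10 values), other scalings, filters and left-out libraries served as alternatives, and scripts were tested on simulated data. The 9 members, the lists and the letters searched were chosen with earlier results of these data known. All 9 members are named, and of each list up to 4 genes with the smallest adjusted p, up to 2 with the largest fold among those called, and partners, cofactors or supply enzymes listed by name (HELLS, CDCA7, PCNA, MBD4, MAT2A, AHCY, OGT, IDH1, IDH2, DNMT3L, GADD45A, GADD45B). TRIM28, SNRPN, S1PR2, MAGEL2 and UNG fall outside that rule and were chosen after their values were seen. A gene that the rule names is not reported here.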

Additional observations from a re-analysis of the deposited data

How the results depend on the processing

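Of 345 values of the 9 enzymes against control over all alternatives, 311 kept their direction and side of the threshold, 17 lost the call, 5 gained one and 12 changed sign. Of 179 values of the called differences between drugs, 154 kept both and 25 lost the call. Calls of UHRF1 with all 3 drugs, DNMT1 with romidepsin and quisinostat, TDG with quisinostat and TET2 with mivebresib were kept in all 13 alternatives each. UHRF2 with quisinostat lost its call under library size alone and under limma on the log10 values. Changes of sign were all in values that had not passed. TET3 with romidepsin read 0.0048 with limma on the log10 values, 0.00083 with library size alone, 0.0123 with upper-quartile factors, and -0.182 to 0.0715 with 1 library left out, the upper value without control replicate 2. TET2 with quisinostat read 0.0602 with limma on the log10 values and 0.062 with library size alone. DNMT3B with quisinostat read -0.0019 with DESeq2, -0.0029 with limma-voom, -0.0068 without a low-count filter, -0.0981 without control replicate 2, and -0.222 (without quisinostat replicate 1) to 0.211 with 1 library left out. TET3 with mivebresib read -0.194 to 0.0824 with 1 library left out, the upper value without control replicate 2. With the fold threshold of 1.5 added, 1 enzyme remained called with romidepsin, 1 with quisinostat, 0 with mivebresib, 0 for quisinostat against romidepsin, 0 for mivebresib against romidepsin and 1 for mivebresib against quisinostat. At a mean CPM of at least 5, mivebresib against romidepsin gave 2 calls among 7 enzymes tested. Leaving out 1 library gave 2 to 3 calls with romidepsin, 4 to 7 with quisinostat, 2 to 4 with mivebresib (4 without control replicate 1, where DNMT1 and DNMT3A were added), 3 for quisinostat against romidepsin, 1 to 2 for mivebresib against romidepsin and 5 to 6 for mivebresib against quisinostat. The library left alone in its group is then assumed to vary like the others. With the replicate number as a block the counts were 2, 6 and 2 against control and 4, 4 and 6 between drugs, the same as without it. The numbers do not pair the wells, since correlations of same-numbered deviations ran from -0.162 to 0.158. Crossing the romidepsin numbers, chosen after seeing the data, gave 3, 7, 3, 4, 4 and 6. Over all lists together 47, 64 and 55 genes were called against control, 49, 62 and 54 with the block, and 46, 60 and 54 with library size alone. Depth limits TET1 and DNMT3B, which had at most 57 counts per library. The number of libraries, 2 a group, limits the rest.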

Other observations

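Imprinted genes, whose parental alleles differ in methylation, were called mostly higher, where 15.2%, 28.0% and 22.2% of all genes rose with romidepsin, quisinostat and mivebresib and 15.8%, 25.1% and 24.1% fell. Of 13 tested, 5 rose and 1 fell with romidepsin, 9 rose and none fell with quisinostat, and 5 rose and 1 fell with mivebresib. MAGEL2, with 1 and 2 counts in the control libraries, and PLAGL1, with 2 and 2, passed the low-count filter through drug libraries. Any rise counted for these genes is therefore partly set by the filter. The median log2 FC was 0.61, 0.98 and 0.39, the last being 0.42 with the genes at or under 3 counts in control cells set to their bound or left out. PEG10, a paternally expressed retrotransposon-derived gene, rose from 6.09 ± 1.56 CPM in control cells to 23.9 ± 3.19 (romidepsin), 142 ± 0.679 (quisinostat) and 15.4 ± 0.158 (mivebresib) (log2 FC 1.97, 4.54 and 1.33, edgeR adjusted p = 0.000124, 8.34e-07 and 0.000274). PEG3 rose with quisinostat (2.77, edgeR adjusted p = 1.3e-05) and mivebresib (0.87, adjusted p = 0.0117). IGF2, the fetal growth factor, rose with quisinostat (1.18, edgeR adjusted p = 7.14e-05) and fell with mivebresib (-0.44, adjusted p = 0.0186). SNRPN, at 93.6 ± 9.26 CPM in control cells, passed with no drug. Which allele was expressed was not measured.

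Germline genes that are methylated in somatic cells were mostly silent. Of 16 listed, 4 passed the low-count filter, with 2 to 13 counts in each control library. These 4 passed through drug libraries with higher counts, so rises among them are partly set by the filter. Of the 4, 1 rose with romidepsin, another 1 with quisinostat, and 2 with mivebresib, where 15.2%, 28.0% and 22.2% of all genes rose. The median log2 FC of the 4 was 0.53, 1.16 and 0.81, under the same limit. SYCP3, a protein of the meiotic chromosome axis, was at 0.180 ± 0.0548 CPM in control cells and 0.619 ± 0.193 with romidepsin (1.76, edgeR adjusted p = 0.0278).

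Other nucleic acid modifying enzymes were called in both directions, beside the same shares of all genes. Of 8 tested, 2 fell with romidepsin, 1 rose and 2 fell with quisinostat, and 1 rose and 5 fell with mivebresib, with median log2 FC of -0.31, -0.16 and -0.62. APOBEC3C, a cytidine deaminase, went from 58.6 ± 2.85 CPM in control cells to 11.8 ± 1.11 with mivebresib (-2.32, edgeR adjusted p = 2.61e-06). N6AMT1, a methyltransferase, rose with quisinostat (0.71, edgeR adjusted p = 0.000292) and mivebresib (1.33, adjusted p = 1.48e-05). METTL4 fell with mivebresib (-1.40, edgeR adjusted p = 5.68e-05). The APOBEC3 genes are related neighbours, so some reads may be split among them.

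The genes most like UHRF1 across the 8 libraries, by Pearson correlation of log2 CPM among 9680 genes, were PLK4 (0.993), LIG1 (0.992) and RFWD3 (0.991). Those most like DNMT1 were CUL7 (0.996), MPDU1 (0.995) and DDX3X (0.994). UHRF1 correlated with DNMT1 at 0.939 and with TDG at 0.937. The 8 points share treatment groups, so these values describe the libraries only.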
